A study of Homo sapiens with 8 samples.

Results

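The comparison set ibrutinib against solvent (DMSO) in TMD8 cells with a guide RNA against KLHL14, and followed every gene that the cells expressed at a mean log2 level of at least 6 over all 8 libraries of the series. That level kept 10921 of the 25066 genes in the deposited table, and in every library they took up 99.7% or more of the reads. TMD8 is a long-established human cell line from a diffuse large B cell lymphoma of the activated B cell type. All cells compared stably expressed Cas9. The 4 libraries labelled sgKLHL14 were 2 from DMSO and 2 from ibrutinib at 2 nM, both after 24 h, and 4 further libraries carried a control guide (sgCTRL) under the same treatments. The deposited totals were 23467110 and 22189713 reads for sgKLHL14 in DMSO and 16843591 and 12333876 reads for sgKLHL14 in ibrutinib. Depth therefore differed with the treatment. The labels do not state whether libraries of 1 group are separate cultures, or whether the guide cells were 1 clone or several, so a p-value here reflects spread from library to library, which may be technical.

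Ibrutinib binds covalently to BTK, the kinase that carries the signal of the B cell receptor from SYK and BLNK to phospholipase C gamma 2. In this lymphoma type the receptor signals without foreign antigen and, through protein kinase C beta and a complex with BCL10 and MALT1, keeps the transcription factor NF-kB active. MYD88 and Toll-like receptors feed into the same factor, and IRF4 and SPIB are known to hold down interferon genes in such cells. KLHL14 is an adaptor of the cullin-3 ubiquitin ligase and is linked to turnover of B cell receptor subunits.

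KLHL14, the targeted gene, had log2 levels of 12.19 and 12.33 in the sgKLHL14 libraries in DMSO and 13.16 and 13.16 in ibrutinib. The groups did not overlap, and the rise was 0.90 (SE 0.0598, limma adjusted p = 9.93e-10), or 1.86-fold. Its mRNA stood no lower with sgKLHL14 than with sgCTRL (12.07 and 12.06 in DMSO, 12.30 and 12.30 in ibrutinib), and a count per gene shows no small insertions or deletions, so the genotype was not checked by these values. BTK itself had levels of 13.72 and 13.78 in DMSO and 14.01 and 14.05 in ibrutinib, and rose 1.22-fold (0.28 on the log2 scale, adjusted p = 0.000585).

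With sgKLHL14, 4599 of the 10921 genes changed with ibrutinib at an adjusted p under 0.05 (42.1%), of which 2296 rose (21.0%) and 2303 fell (21.1%). Most changes were small: 3449 of the 4599 (75.0%) were under 1.5-fold, and 61.4% of all genes stayed within 1.2-fold. At least 2-fold changes were 177 increases (1.62% of all genes) and 124 decreases (1.14%), and at least 4-fold changes were 18 increases and 14 decreases. The median over all genes was 0.004 on the log2 scale with quartiles of -0.19 and 0.21. The DMSO and ibrutinib libraries did not overlap for 7583 genes (69.4%). Among the 4599 genes that passed, they overlapped for only 7. Where a gene that passed is said below not to overlap, this adds little to its call. Among genes with a mean log2 level between 6 and 8, 34.2% passed, with a median standard error of 0.179, against 53.1% of those at 12 or more, with a median standard error of 0.0614. Changes of at least 2-fold passed in 8.06% of the lower group and 0.786% of the higher. Of the 301 changes of at least 2-fold that passed, 158 were in the lower group. Libraries of 1 sgKLHL14 group correlated across these genes at 0.9961 (DMSO) and 0.9955 (ibrutinib), and differed by more than sampling noise (chi-square per degree of freedom 9.23 and 4.16).

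**Figure D1:**
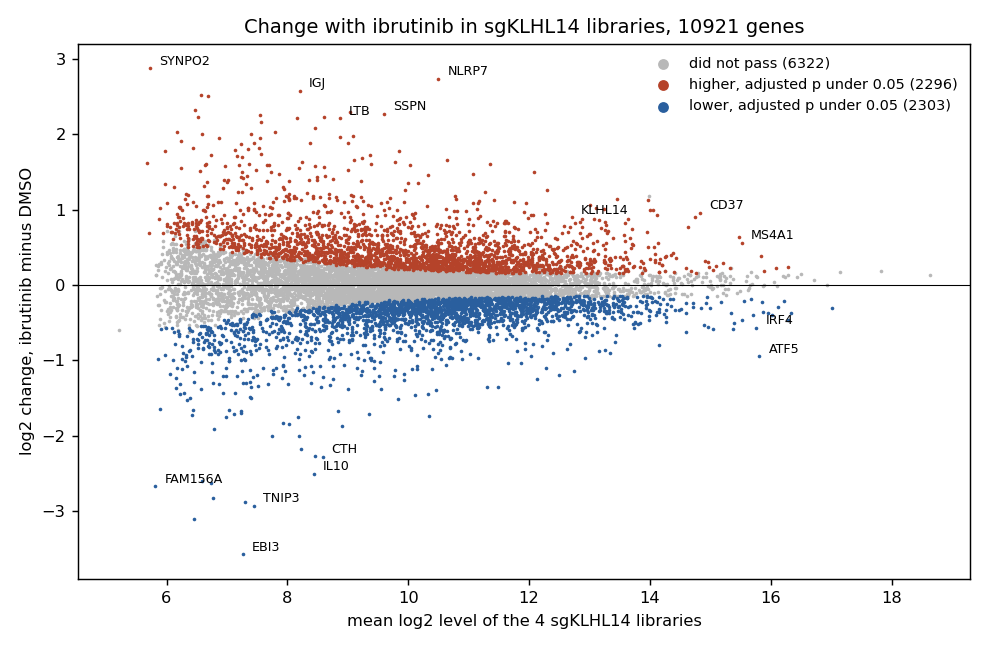
Each point is 1 of 10921 genes; the x axis is its mean log2 level over the 4 sgKLHL14 libraries and the y axis its log2 change with ibrutinib. Red and blue points rose (2296) and fell (2303) at an adjusted p under 0.05, and the labelled genes run from EBI3 (-3.58) to SYNPO2 (2.87).

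The largest increases came from several gene families. SYNPO2, an actin-binding protein, had log2 levels of 4.14 and 4.46 in DMSO and 7.04 and 7.30 in ibrutinib. NLRP7, of the NLR family, had 9.17 and 9.09 in DMSO and 11.88 and 11.85 in ibrutinib. IGJ (now JCHAIN), the joining chain of polymeric antibodies, had 7.02 and 6.83 in DMSO and 9.50 and 9.50 in ibrutinib. The folds of these 3 genes were 7.33, 6.66 and 5.96 (limma adjusted p = 1.06e-08, 4.06e-14 and 6.26e-12). The 15 largest increases and decreases were taken only from genes that passed and whose treatments did not overlap. Their separation is therefore a condition of the choice and not a further result. The next were KCNH2, a potassium channel (2.52 on the log2 scale), ABLIM1, another actin-binding protein (2.51), GNG11, a G protein subunit (2.33), CRYM, a thyroid hormone-binding protein (2.30), SSPN (2.27), LTBP2, a matrix protein (2.25), GJB2, a gap junction channel (2.23), the adhesion receptor CEACAM1 (2.22), CPNE5 (2.21), the cytokine lymphotoxin beta, LTB (2.21), DSCAML1 (2.16) and GNB3 (2.08). Several of these increases rested on low counts. The sgKLHL14 DMSO libraries held 15 and 18 reads for SYNPO2, 41 and 27 for GNG11 and 42 and 26 for KCNH2. They held 32 and 39 for GJB2 and 34 and 38 for ABLIM1. Adding 16 to each linear value gave 2.16 for SYNPO2. Reads thinned to equal depth, a setting chosen after seeing the data, gave 2.92 for GNG11.

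The largest decrease was that of EBI3. It encodes a subunit of the cytokines IL-27 and IL-35 and had log2 levels of 9.16 and 8.95 in DMSO and 5.66 and 5.30 in ibrutinib, an 11.9-fold decrease (adjusted p = 2.07e-11). THRB, a thyroid hormone receptor, was next and fell by 3.10 on the log2 scale. TNIP3, an inhibitor of NF-kB signalling, had 8.84 and 9.01 in DMSO and 5.99 and 5.99 in ibrutinib (7.65-fold lower). EGR2, an immediate-early transcription factor, had 8.66 and 8.81 in DMSO and 5.83 and 5.88 in ibrutinib (7.34-fold lower). IL10, an anti-inflammatory cytokine, had 9.71 and 9.66 in DMSO and 7.25 and 7.11 in ibrutinib (5.68-fold lower). As with the increases, genes whose groups overlapped could not enter this ranking. The others among the 15 largest, on the log2 scale, were the secreted amino acid oxidase IL4I1 (-2.82), the unconventional myosin MYO7A (-2.63), the ectonucleotidase ENPP1 (-2.61), the cysteine-synthesis enzyme CTH (-2.28), transglutaminase TGM2 (-2.27), the glutathione-degrading enzyme CHAC1 (-2.17), the integrin-binding protein FERMT2 (-2.01), glycogen phosphorylase PYGL (-2.003) and the phosphatase DUSP15 (-1.92). Several of these decreases rested on low counts in ibrutinib. The sgKLHL14 ibrutinib libraries held 31 and 18 reads for EBI3, 25 and 10 for THRB and 39 and 29 for TNIP3. They held 35 and 27 for EGR2, 25 and 19 for IL4I1 and 26 and 20 for MYO7A. ENPP1 had 25 and 17 and DUSP15 had 35 and 26. FAM156A also passed (-2.67, adjusted p = 0.0113), with levels of 7.27, 7.03, 6.83 and 2.13. Only sgKLHL14 ibrutinib replicate 2 was low, at 2 reads against 70 in the other ibrutinib library, and without it the change was -0.32 (adjusted p = 0.274), against -5.02 without replicate 1. It did not pass without sgKLHL14 DMSO replicate 1, the level filter or the variance trend, or with a robust prior, either (adjusted p = 0.0509 to 0.279). Reads shared with its near-identical neighbour FAM156B make the value uncertain.

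**Figure D2:**
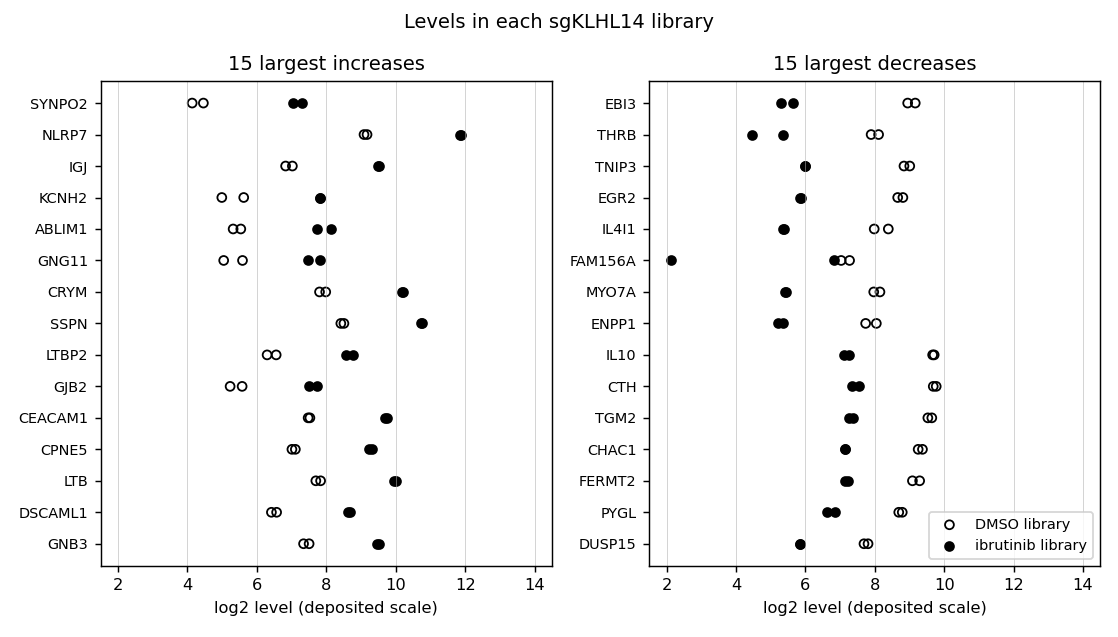
Log2 levels of the 15 largest increases and 15 largest decreases in each sgKLHL14 library, with open circles for DMSO and filled circles for ibrutinib. Only genes whose 2 treatments did not overlap were eligible, so the treatments are separated in every row by choice. FAM156A is the row in which a single ibrutinib library, at 2.13, lies away from the other 3.

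Counted in normalized reads, which are not corrected for transcript length, other genes moved most. The gains were led by CD37, a tetraspanin of B cells (mean normalized count 20867 in DMSO and 40357 in ibrutinib), and MS4A1, which encodes CD20 (38770 and 57155). ABCA7, a lipid transporter, NAPSB, ATP2A3, a calcium pump, MPEG1, a pore-forming protein, and CD74, the invariant chain of MHC class II, rose by 0.90, 1.13, 1.00, 0.76 and 0.38 on the log2 scale. RPL28, a ribosomal protein, rose by 0.24. The losses were led by the transcription factor ATF5 (79889 in DMSO and 41415 in ibrutinib), beta-actin, ACTB (147611 and 119246), the ferritin light chain FTL (94473 and 68059) and IRF4 (67671 and 45661). The chaperones HSP90AB1, HSP90AA1 and HSPD1 fell by 0.37, 0.38 and 0.58 on the log2 scale, and LCP1, an actin-bundling protein, by 0.40. In bulk libraries a change in the share of cells of a state and a change of RNA per cell cannot be told apart. RPL28 did not pass without sgCTRL ibrutinib replicates 1 and 2 (each in turn), sgKLHL14 DMSO replicate 2, sgKLHL14 ibrutinib replicates 1 and 2 (each in turn), without the level filter, without the variance trend or with only the sgKLHL14 libraries (adjusted p = 0.0538 to 0.451). ACTB did not pass without the level filter (adjusted p = 0.0719).

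The following groups of genes are lists of known pathway members, and each is read against the 21.0% of all genes that rose and the 21.1% that fell. The lists were written with earlier results of these data known, so their counts are descriptions and not independent tests. Genes of the B cell receptor and its proximal signalling mostly rose. Of 38, 24 rose and 4 fell, with a median of 0.27 (0.19 with sgCTRL, where 20 rose and 4 fell). CD79B, the receptor's signalling chain, had log2 levels of 12.99 and 12.76 in DMSO and 14.00 and 14.05 in ibrutinib, and rose 2.21-fold without overlap of the groups (adjusted p = 1.63e-10). Its partner CD79A rose by 0.36, the kinase SYK by 0.41, the adaptor BLNK by 0.38, PLCG2 by 0.34 and PRKCB by 0.48. Negative regulators rose as well: the ubiquitin ligase CBLB (1.09), the phosphatases PTPN22 (1.10) and INPP5D (0.49), and the inhibitory receptors CD72 (0.89), FCGR2B (0.76) and CD22 (0.25). The decreases were SH3BP2, an adaptor (-1.09), FYN, a SRC-family kinase (-0.77), the phosphatase PTPN6 (-0.23) and LAT2 (-0.19). The kinase LYN, at -0.11, did not pass (adjusted p = 0.144). PTPN6 did not pass without sgKLHL14 DMSO replicate 1, without the level filter or without the variance trend (adjusted p = 0.0569 to 0.102). LAT2 did not pass without sgCTRL ibrutinib replicates 1 and 2 (each in turn), sgKLHL14 DMSO replicates 1 and 2 (each in turn), sgKLHL14 ibrutinib replicates 1 and 2 (each in turn), without the variance trend, with only the sgKLHL14 libraries or with quantile scaling (adjusted p = 0.0511 to 0.168).

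**Figure D3:**
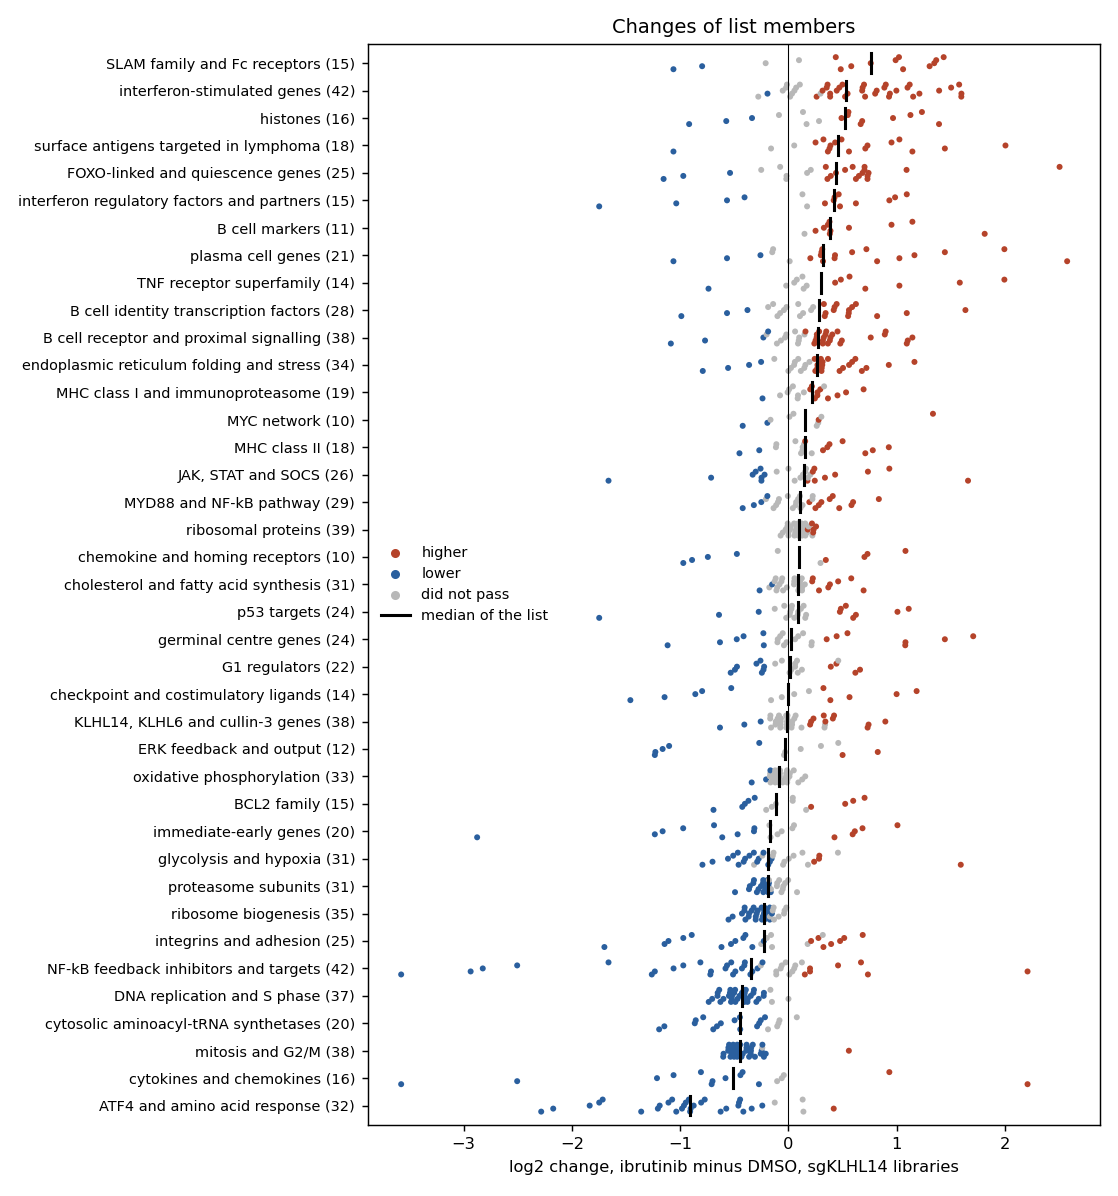
Each point is a gene of a list with at least 10 measured members, placed by its log2 change with ibrutinib in the sgKLHL14 libraries, with the median of each list as a black bar; red and blue points rose and fell at an adjusted p under 0.05. Medians run from -0.90 for ATF4 and amino acid response genes to 0.76 for SLAM family and Fc receptors.

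Components of the MYD88 and NF-kB pathway changed in both directions. Of 29 genes 10 rose and 4 fell (median 0.11). The endosomal receptors TLR7 (0.84) and TLR9 (0.58) and their chaperone UNC93B1 (0.60) rose most, followed by BCL10 (0.47), IKBKB (0.38) and MYD88 (0.30). NFKB2 (-0.42), MAP3K14 (-0.32), TRAF2 (-0.25) and RELB (-0.19), parts of the non-canonical NF-kB branch and its control, fell. The subunits NFKB1 (-0.14) and RELA (0.13) did not pass (adjusted p = 0.0661 and 0.153). TRAF2 did not pass without sgCTRL ibrutinib replicates 1 and 2 (each in turn), sgKLHL14 DMSO replicate 1, sgKLHL14 ibrutinib replicate 2, without the level filter, without the variance trend, with only the sgKLHL14 libraries or with thinned reads (adjusted p = 0.0516 to 0.26). RELB did not pass without sgCTRL ibrutinib replicates 1 and 2 (each in turn), sgKLHL14 DMSO replicate 1, sgKLHL14 ibrutinib replicate 2, without the level filter, without the variance trend, with only the sgKLHL14 libraries, with quantile scaling or with thinned reads (adjusted p = 0.0559 to 0.305).

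NF-kB target genes fell more often than they rose. Of 42, 24 fell and 7 rose, with a median of -0.34 (-0.37 with sgCTRL). The feedback inhibitor NFKBIA had log2 levels of 11.26 and 11.14 in DMSO and 10.26 and 10.20 in ibrutinib, and fell 1.96-fold (adjusted p = 4.97e-09). TNFAIP3 (A20), which edits ubiquitin chains on the pathway, had 11.98 and 11.98 in DMSO and 11.28 and 11.24 in ibrutinib, and fell 1.64-fold. Neither gene's groups overlapped. The group's largest decreases were EBI3, TNIP3, IL4I1 and IL10, described with the largest changes, then STAT5A (-1.66), the inhibitor NFKBID (-1.26), IER3 (-1.23) and the cytokine TNF (-1.06), and the anti-death genes CFLAR (-0.81), TRAF1 (-0.72) and BCL2A1 (-0.40) also fell. LTB went the other way, with 7.83 and 7.70 in DMSO and 10.01 and 9.94 in ibrutinib (4.63-fold higher), and SLC2A6 (0.73), SAT1 (0.67) and HHEX (0.46) rose. CD40, a receptor that feeds NF-kB, was at 0.05 and did not pass (adjusted p = 0.581). The median moved to -0.26 without sgKLHL14 DMSO replicate 1 and to -0.41 without replicate 2.

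The promoters of NFKBIA and TNFAIP3 are shown because both genes are direct feedback targets of NF-kB and both fell. Windows of 300 bases around RefSeq gene starts (250 before, 50 after, GRCh38.p14) were searched on both strands for a core of the NF-kB consensus, which reads GGG, any 2 bases, then TTTCC. It was found in 4 of 22 fallen NF-kB target genes with a promoter entry (18.2%) and in 2.33% of all 27305 genes with one. The runs below lie upstream of the start and are read along the gene's strand, with a single match in capitals, on the opposite strand. The TNFAIP3 run holds a further match on the opposite strand, left in small letters. A match is a description of letters, not a measured site. Here and for the motifs below, no share was taken for list members that did not change in the stated direction. The shares therefore do not link a motif to a change.
NFKBIA chr14:35404806-35404845 (- strand): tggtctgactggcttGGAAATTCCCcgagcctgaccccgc
TNFAIP3 chr6:137867189-137867228 (+ strand): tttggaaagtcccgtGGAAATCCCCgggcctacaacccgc

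Immediate-early genes, which receptor signals switch on within minutes, were split. Of 20, 9 fell and 5 rose (median -0.17). EGR2 fell most, then IER3, the phosphatase DUSP2 (-1.16), ATF3 (-0.97), JUNB (-0.69) and JUN (-0.61), both subunits of AP-1, IER5 (-0.47) and SRF (-0.32). BTG2, an antiproliferative gene, had log2 levels of 12.74 and 12.73 in DMSO and 13.74 and 13.75 in ibrutinib and rose 2.01-fold without overlap (adjusted p = 7.88e-11). BTG1 (0.69), CD69 (0.61), KLF2 (0.59) and ZFP36 (0.43) also rose. MYC had levels of 12.45 and 12.32 in DMSO and 12.22 and 12.22 in ibrutinib, a change of -0.17 that did not pass (adjusted p = 0.0543), although its groups did not overlap. It passed without sgCTRL DMSO replicates 1 and 2 (each in turn), without sgKLHL14 DMSO replicate 2 (-0.23) and with the replicate block (adjusted p = 0.0227 to 0.0392). Of 12 genes of ERK feedback and output, the transcription factors ETV4 (-1.23) and ETV5 (-1.10) and IER3, DUSP2 and PHLDA1 (-0.27) fell, while the ERK phosphatase DUSP5 (0.83) and the ephrin receptor EPHA4 (0.50) rose. CD69 did not pass without sgKLHL14 DMSO replicates 1 and 2 (each in turn), sgKLHL14 ibrutinib replicate 1, without the level filter or without the variance trend (adjusted p = 0.053 to 0.156).

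Cytokine genes mostly fell, and the list of JAK, STAT and SOCS genes was mixed. Of 16 cytokine and chemokine genes 11 fell and 2 rose (median -0.51). Besides EBI3, IL10 and TNF, the decreases included CXCL10 (-1.21), CSF1 (-0.81), IL32 (-0.71), lymphotoxin alpha, LTA (-0.58), and TGFB1 (-0.44), and the increases were LTB and IL16 (0.93). Among 26 JAK, STAT and SOCS genes 9 rose and 8 fell. IL4R, the interleukin-4 receptor, had log2 levels of 9.90 and 9.71 in DMSO and 11.38 and 11.56 in ibrutinib, a 3.16-fold increase (adjusted p = 1.74e-11). STAT5A had 7.97 and 7.76 in DMSO and 6.19 and 6.22 in ibrutinib, a 3.16-fold decrease. Neither pair of groups overlapped. STAT2 (0.93), IL10RA (0.73) and IL2RG (0.43) rose, and SOCS6 (-0.33), IL21R (-0.30) and STAT3 (-0.26) fell.

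Interferon-stimulated genes rose. Of 42, 31 rose and SAMHD1 (-0.19) fell, with a median of 0.53 (0.59 with sgCTRL, where 32 rose). OAS1, which makes the activator of RNase L, had log2 levels of 10.59 and 10.53 in DMSO and 12.21 and 12.11 in ibrutinib, a 3.03-fold increase (adjusted p = 2.24e-12). IFIT1, which binds viral RNA ends, had 6.06 and 6.31 in DMSO and 7.80 and 7.73 in ibrutinib (2.99-fold higher). OAS2 had 10.84 and 10.89 in DMSO and 11.96 and 12.02 in ibrutinib (2.17-fold higher). In all 3 the ibrutinib libraries lay above the DMSO libraries. IFIT3 (1.60), IFIT2 (1.504), XAF1 (1.39), DDX60 (1.21), ISG20 (1.15), RTP4 (1.10), OAS3 (1.00), TRIM22 (0.94), USP18 (0.93) and MX1 (0.70) rose too. The other 10 genes of the list did not pass, among them the RNA-editing enzyme ADAR (0.06, adjusted p = 0.484). The list's median was 0.62 without sgKLHL14 DMSO replicate 1. IFIT and OAS family members are related in sequence, so reads they share may be misplaced. SAMHD1 did not pass without sgCTRL ibrutinib replicates 1 and 2 (each in turn), sgKLHL14 DMSO replicate 2, sgKLHL14 ibrutinib replicates 1 and 2 (each in turn), without the variance trend or with only the sgKLHL14 libraries (adjusted p = 0.0525 to 0.195).

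Genes of interferon regulatory factors and their partners moved in both directions. Of 15 interferon regulatory factors and partners 9 rose and 4 fell. IRF8, a B cell and myeloid regulator, had log2 levels of 11.26 and 11.15 in DMSO and 12.28 and 12.31 in ibrutinib (2.13-fold higher). IRF7, the inducer of type I interferon, rose 1.98-fold (0.99), and IRF9 (0.48), SPI1 (0.62), SPIB (0.42) and PRDM1 (0.43) rose. IRF4 had 15.999 and 16.09 in DMSO and 15.46 and 15.50 in ibrutinib, a 1.48-fold decrease (adjusted p = 8.37e-07) without overlap. The AP-1 partners of IRF4, BATF3 (-1.75) and BATF (-1.04), fell, as did IRF5 (-0.41). IRF2 was at 0.13 and did not pass (adjusted p = 0.136).

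Promoter runs of 4 of the risen interferon-stimulated genes are shown because they hold the core letters of the interferon-stimulated response element, the sequence that STAT2, IRF9 and other IRFs are known to bind. The core, GAAA, any 2 bases, then GAAA, searched on both strands of the same windows, was found in 17 of 25 risen interferon-stimulated genes with a promoter entry (68.0%), against 4.38% of all 27305 genes and 4.19% of the 8757 genes of this comparison with an entry. Whether the core is more frequent in the list's risen genes than in its others was not tested. Capitals mark a single match in each run, and that of IFIT1 lies on the opposite strand. The IFIT1 run holds a further match on the opposite strand, left in small letters.
OAS3 chr12:112938316-112938355 (+ strand): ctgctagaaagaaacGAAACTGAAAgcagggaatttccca
RTP4 chr3:187368328-187368367 (+ strand): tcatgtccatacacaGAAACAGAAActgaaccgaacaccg
DDX60 chr4:168318816-168318855 (- strand): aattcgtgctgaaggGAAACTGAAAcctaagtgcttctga
IFIT1 chr10:89392492-89392531 (+ strand): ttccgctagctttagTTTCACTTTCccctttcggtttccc

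Genes of the ATF4 amino acid response fell nearly throughout. ATF4 is the transcription factor of the integrated stress response and induces amino acid synthesis, import and tRNA charging. Of 32 genes 28 fell and SLC1A4, a neutral amino acid carrier, rose (0.42), and the median was -0.90 (-0.87 with sgCTRL). CTH had log2 levels of 9.68 and 9.77 in DMSO and 7.35 and 7.54 in ibrutinib, a 4.87-fold decrease. ASNS, asparagine synthetase, had 12.20 and 12.13 in DMSO and 10.84 and 10.78 in ibrutinib, a 2.57-fold decrease (adjusted p = 1.54e-11). ATF4 mRNA had 13.63 and 13.55 in DMSO and 12.77 and 12.67 in ibrutinib, a 1.83-fold decrease. None of the 3 overlapped between treatments. Other decreases were the glycine carrier SLC6A9 (-1.84), the stress sensor SESN2 (-1.75), ALDH1L2 of one-carbon metabolism (-1.72), TRIB3 (-1.07), the serine-synthesis enzymes PHGDH (-1.04), PSAT1 (-0.96) and PSPH (-0.81), PYCR1 of proline synthesis (-0.98), SHMT2 (-0.90) and MTHFD2 (-0.45), and the transcription factors ATF5 (-0.95) and DDIT3 (-0.77). SLC7A5, a carrier of large neutral amino acids, was at -0.13 and did not pass (adjusted p = 0.0938).

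Cytosolic aminoacyl-tRNA synthetases, which load amino acids onto tRNAs, fell in 15 of 20 cases, and 0 rose (median -0.45, -0.48 with sgCTRL). CARS had log2 levels of 13.14 and 13.04 in DMSO and 11.96 and 11.83 in ibrutinib (2.29-fold lower), and WARS had 13.32 and 13.30 in DMSO and 12.16 and 12.17 in ibrutinib (2.21-fold lower), both without overlap. GARS (-0.86), YARS (-0.86), SARS (-0.79), TARS (-0.69), EPRS (-0.66) and MARS (-0.62) followed. The other 5 did not pass, and lay between -0.19 and 0.08.

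The runs below show the element through which ATF4 with C/EBP factors is known to act. Its core TGATGNAA was found in 6 of 23 fallen ATF4-response genes with a promoter entry (26.1%) and 7 of 12 fallen synthetase genes (58.3%), against 4.46% of all 27305 genes, on either strand. Capitals mark the match, which lies on the opposite strand in CHAC1 and AARS. Neither CTH nor SESN2 had a match in this window, which says only that these letters are not in it.
ASNS chr7:97872454-97872491 (- strand): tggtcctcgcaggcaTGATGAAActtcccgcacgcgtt
CEBPG chr19:33374056-33374093 (+ strand): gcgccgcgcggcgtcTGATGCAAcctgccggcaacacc
CHAC1 chr15:40953247-40953284 (+ strand): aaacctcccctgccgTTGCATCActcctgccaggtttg
AARS chr16:70289671-70289708 (- strand): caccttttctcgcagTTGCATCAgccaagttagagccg

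Cell cycle genes fell by smaller amounts and very evenly. Of 37 DNA replication and S phase genes 34 fell and 0 rose (median -0.43), and of 38 mitosis and G2/M genes 36 fell and CDC25B, a phosphatase that activates cyclin-dependent kinases, rose (0.56; median -0.45). MCM2, a subunit of the replicative helicase, had log2 levels of 12.63 and 12.49 in DMSO and 11.91 and 11.96 in ibrutinib, a 1.54-fold decrease (adjusted p = 1.44e-07). CCNA2, cyclin A2, had 12.001 and 12.05 in DMSO and 11.50 and 11.44 in ibrutinib (1.47-fold lower). Both were without overlap. In the replication list POLE2 (-0.74), CHAF1B (-0.70), CDC45L (-0.65), CDT1 (-0.64), MCM6 (-0.60) and PCNA (-0.52) fell, and the other 3 genes did not pass. In the mitotic list the centromere histone CENPA (-0.60), the kinesin KIF2C (-0.60), survivin, BIRC5 (-0.55), the mitotic transcription factor FOXM1 (-0.54), PLK1 (-0.51), CCNB1 (-0.47) and CDC2, now CDK1 (-0.47), fell. In the 2 lists 0 genes fell 2-fold or more.

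The medians of both lists were lower than with the control guide, although the difference passed for no single gene. The same lists had medians of -0.23 (23 of 37 fell, 1 rose) and -0.27 (29 of 38 fell, 1 rose) in the sgCTRL libraries, where 19.2% of all genes rose and 18.3% fell. The difference between the responses was below 0 for 37 of 37 replication genes and 37 of 38 mitotic genes, against 51.2% of all genes, with medians of -0.20 and -0.14 against -0.004. At an unadjusted p under 0.05 the responses differed for 17 (45.9%) and 12 (31.6%), against 5.72% of all genes, and for 0 genes of either list after adjustment over all genes (smallest adjusted p 0.386 and 0.481). MCM2 changed by -0.63 with sgKLHL14 and -0.26 with sgCTRL (difference -0.37, adjusted p = 0.386), MCM7 by -0.45 and -0.12, TYMS by -0.40 and -0.10, and CDC20 by -0.36 and -0.01 (difference -0.35, adjusted p = 0.481). Averaged over the replication list, log2 levels in DMSO were 11.33 and 11.30 with sgKLHL14 and 11.24 and 11.23 with sgCTRL. In ibrutinib they were 10.90 and 10.85 with sgKLHL14 and 11.01 and 10.99 with sgCTRL. The sgKLHL14 libraries were the highest of the 4 groups in DMSO and the lowest in ibrutinib. The median difference of the replication list was -0.24 to -0.18 over the runs that left out 1 library each, and that of the mitotic list -0.16 to -0.13. Genes of a cell cycle phase rise and fall together in a culture, so the number of genes is not a number of independent observations.

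**Figure D4:**
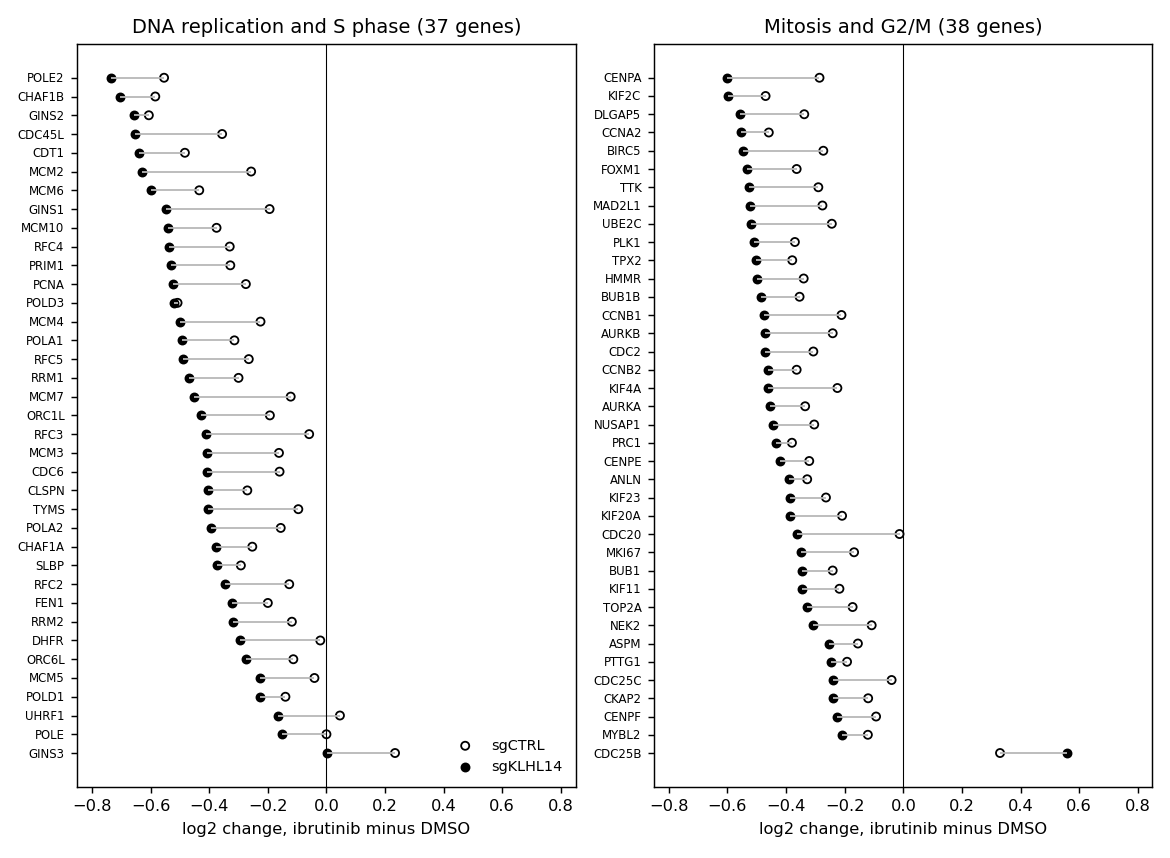
Log2 changes with ibrutinib of 37 replication genes and 38 mitotic genes, with filled circles for sgKLHL14 and open circles for sgCTRL, joined by a line for each gene. Filled circles lie to the left of open ones for 37 of 37 and 37 of 38 genes.

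The cell cycle genes homology region, TTTGAA, through which the DREAM complex is known to hold down mitotic genes, was found in the window of 19 of 30 fallen mitotic genes with a promoter entry (63.3%) and of 18.2% of all 27305 genes, on either strand. A match of 6 letters arises often. In the 3 runs shown the match begins 29, 29 and 23 bases before the start.
CCNB2 chr15:59105102-59105137 (+ strand): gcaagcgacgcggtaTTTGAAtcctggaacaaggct
PLK1 chr16:23678845-23678880 (+ strand): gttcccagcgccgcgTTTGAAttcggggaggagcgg
BUB1B chr15:40161031-40161066 (+ strand): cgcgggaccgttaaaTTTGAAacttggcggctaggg

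Regulators of G1 were mixed. Of 22, 8 fell and 4 rose (in sgCTRL 2 fell and 7 rose, and the difference passed for 0). CDK6 (-0.53), E2F7 (-0.49) and CDK2 (-0.47) fell, and E2F5 (0.66), E2F2 (0.62), the pocket protein RBL2 (0.44) and CCNG2 (0.39) rose. In the network of MYC partners, MXD4, an antagonist of MYC, had log2 levels of 6.55 and 6.75 in DMSO and 7.92 and 8.05 in ibrutinib and rose 2.52-fold, MNT rose by 0.28, and MXI1 (-0.42) and MAX (-0.19) fell, out of 10 genes. MNT did not pass without sgKLHL14 DMSO replicates 1 and 2 (each in turn), sgKLHL14 ibrutinib replicate 2, without the level filter, without the variance trend, with quantile scaling or with thinned reads (adjusted p = 0.0617 to 0.219). MAX did not pass without sgCTRL ibrutinib replicates 1 and 2 (each in turn), sgKLHL14 DMSO replicate 1, sgKLHL14 ibrutinib replicate 2, without the level filter, without the variance trend or with only the sgKLHL14 libraries (adjusted p = 0.0571 to 0.313).

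Growth and metabolism genes fell in several groups. Ribosome biogenesis genes fell in 27 of 35 cases and 0 rose (median -0.23), with PA2G4 (-0.52), DDX21 (-0.43), NOLC1 (-0.41) and nucleolin, NCL (-0.40), as examples. Proteasome subunits fell in 20 of 31 cases and 0 rose (median -0.19, or -0.12 without sgKLHL14 ibrutinib replicate 2), led by PSMA6 (-0.49), PSMC3 (-0.36) and PSMB2 (-0.32). With sgCTRL 9 of the 31 fell, and the difference between guides passed for 0 of them, with 0 at an unadjusted p under 0.05 in limma (median difference -0.06). Of 31 glycolysis and hypoxia genes 16 fell, among them the pyruvate dehydrogenase kinase PDK1 (-0.79), VEGFA (-0.70), LDHA (-0.56), PKM2 (-0.51) and ENO1 (-0.47). SLC2A3, a glucose carrier, had log2 levels of 5.96 and 5.71 in DMSO and 7.44 and 7.41 in ibrutinib (3.02-fold higher), and BNIP3 (0.29), PFKP (0.28) and BNIP3L (0.24) also rose. BNIP3 did not pass without sgKLHL14 DMSO replicate 2 or sgKLHL14 ibrutinib replicate 1 (adjusted p = 0.0615 to 0.0679). BNIP3L did not pass without sgKLHL14 ibrutinib replicate 2 (adjusted p = 0.0897).

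Of 31 cholesterol and fatty acid synthesis genes 8 rose (25.8%), near the 21.0% of all genes, and 2 fell (6.45%). Fewer of them passed (32.3%) than of all genes (42.1%). Their median was 0.09, and it was 0.037 without sgKLHL14 DMSO replicate 2 and 0.057 without sgKLHL14 ibrutinib replicate 2. The increases included TM7SF2 (0.69), LSS (0.58), SC4MOL, now MSMO1 (0.46), and HMGCS1 (0.38), and the sterol sensors INSIG2 (-0.27) and INSIG1 (-0.15) fell. Of 33 oxidative phosphorylation subunits SDHB (-0.34), ATP5F1 (-0.21) and NDUFS1 (-0.17) fell and 0 rose. Of 39 ribosomal protein genes RPS9 (0.26), RPL10 (0.23), RPL3 (0.23), RPS4X (0.22) and RPS3 (0.18) rose and 0 fell, and reads of pseudogenes make single values of this family uncertain. Leaving out 1 library ended the call of INSIG1, INSIG2 and ATP5F1 (without sgKLHL14 DMSO replicate 1), of INSIG1, INSIG2, NDUFS1, RPS9, RPL10, RPL3 and RPS3 (without sgKLHL14 DMSO replicate 2 or ibrutinib replicate 1), of INSIG1, INSIG2, ATP5F1, NDUFS1 and RPS9 (without sgKLHL14 ibrutinib replicate 2) and of INSIG1, INSIG2, NDUFS1 and RPS3 (without either sgCTRL ibrutinib library). These 8 genes did not pass without the variance trend either, and adjusted p was 0.0501 to 0.411 over the runs in which they did not pass.

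Many genes of the secretory pathway and of plasma cells rose. Of 34 endoplasmic reticulum genes 20 rose and 4 fell (median 0.27). XBP1, the transcription factor of the unfolded protein response, had log2 levels of 10.94 and 10.84 in DMSO and 11.51 and 11.44 in ibrutinib (a rise of 0.59 on the log2 scale, no overlap). DERL3 (1.17), DNAJB9 (0.93), MGC29506, now MZB1 (0.72), SYVN1 (0.68), PDIA4 (0.62), the sensor ERN1 (0.56) and HSPA5 (0.37) rose. EDEM1 (-0.79), ERO1L (-0.56), HERPUD1 (-0.36) and SEL1L (-0.25) fell. Of 21 plasma cell genes 15 rose and SLAMF7 (-1.06), IRF4 and PRDX4 (-0.26) fell. CD27, a receptor of memory B cells, had 6.31 and 6.48 in DMSO and 8.26 and 8.52 in ibrutinib (3.99-fold higher), and CD38 (1.45), TNFRSF17 (1.03) and POU2AF1 (0.82) rose beside IGJ. SEL1L did not pass without sgKLHL14 DMSO replicate 2 or without the variance trend (adjusted p = 0.0669 to 0.109). PRDX4 did not pass without sgKLHL14 DMSO replicate 1 or sgKLHL14 ibrutinib replicate 2, without the level filter, without the variance trend or with thinned reads (adjusted p = 0.0658 to 0.207).

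Transcription factors of B cell identity rose in 14 of 28 cases. ID3, an inhibitor of E proteins, had log2 levels of 7.48 and 7.38 in DMSO and 9.01 and 9.12 in ibrutinib (3.11-fold higher), while its relative ID2 fell by 0.99 and EBF1 by 0.38. ETS1 (0.56), BCL11A (0.56), POU2F2 (0.34) and TCF4 (0.34) rose, and MEF2C, at -0.10, did not pass (adjusted p = 0.228). Of 24 germinal centre genes 7 rose and 6 fell. STAP1, a B cell receptor adaptor, had 6.18 and 6.44 in DMSO and 8.02 and 8.01 in ibrutinib (3.27-fold higher), and the receptor S1PR2 (1.08) and ELL3 (1.08) rose. LMO2 had 10.94 and 10.94 in DMSO and 9.81 and 9.84 in ibrutinib (2.17-fold lower), and KLHL6 (-0.63), RGS13 (-0.48) and EZH2 (-0.41) fell. Of 25 genes linked to FOXO factors and quiescence 16 rose, among them FOXO3 (0.74), FOXO1 (0.52), CXCR4 (0.73), CCR7 (0.70), YPEL5 (1.09) and TXNIP (0.44), and GABARAPL1 (-1.15) and LEF1 (-0.54) were among those that fell.

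Surface receptors changed in many families. Of 15 SLAM family and Fc receptor genes 11 rose and SLAMF7 and CD48 (-0.80) fell, with a median of 0.76 (0.83 with sgCTRL). SLAMF6 had log2 levels of 9.25 and 9.39 in DMSO and 10.65 and 10.68 in ibrutinib (2.54-fold higher), and FCRL1 had 7.67 and 7.89 in DMSO and 9.19 and 9.24 in ibrutinib (2.70-fold higher), both without overlap. FCGR2C (1.37), FAIM3, now FCMR (1.30), FCRLA (1.06), FCRL3 (1.02) and CD84 (0.99) rose as well. FCGR2B and FCGR2C are near-identical, so their reads may be misplaced. Of 18 surface antigens that lymphoma therapies target, 15 rose and SLAMF7 fell (median 0.46): CD52 rose 4.02-fold, CD38, CD79B, TNFRSF17 and CD37 1.94-fold or more, and MS4A1 1.47-fold. In the TNF receptor superfamily 7 of 14 rose, with TNFRSF21 at 9.21 and 9.27 in DMSO and 10.79 and 10.85 in ibrutinib (3.00-fold higher) and the BAFF receptor TNFRSF13C (0.71) among them, and TNFRSF11A (-0.74) fell. TNFRSF11A did not pass without sgKLHL14 ibrutinib replicate 1 (adjusted p = 0.0636).

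Adhesion molecules and ligands for T cells changed in both directions. Of 25 integrins and adhesion genes 12 fell and 7 rose: ITGA1 had log2 levels of 8.02 and 8.13 in DMSO and 6.46 and 6.30 in ibrutinib (3.25-fold lower), CD58, the ligand of CD2, fell by 1.14, JAM2 by 1.11 and ITGAX by 0.89, and ITGAL (0.69) and ITGA3 (0.48) rose. Of 14 checkpoint and costimulatory genes 5 fell and 5 rose. CD274, which encodes PD-L1, had 10.76 and 10.94 in DMSO and 9.44 and 9.34 in ibrutinib (2.75-fold lower, adjusted p = 5.74e-11). CD58, PDCD1 (-0.86), CD48 and CD80 (-0.53) fell, and C10orf54, now VSIR (1.19), ICOSLG (1.00), TNFRSF14 (0.56), LGALS9 (0.39) and CD47 (0.32) rose. ICOSLG was at -0.11 with sgCTRL, and that difference did not pass (1.11, adjusted p = 0.477). Of 10 homing receptors S1PR2, CXCR4, CCR7 and S1PR1 (0.35) rose, and PTGER4 (-0.89), GPR183 (-0.74) and CXCR5 (-0.48) were among those that fell. PDCD1 did not pass without sgKLHL14 DMSO replicate 1 (adjusted p = 0.0635).

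Antigen presentation genes rose in part. Of 18 MHC class II genes 8 rose, led by HLA-DOB (0.93), HLA-DMA (0.78), HLA-DMB (0.71), which edit peptide loading, the protease CTSS (0.50) and CD74, and RFXAP (-0.45) and HLA-DRB5 (-0.27) fell. Of 19 MHC class I and immunoproteasome genes 10 rose, with NLRC5 (0.69), PSMB8 (0.53) and HLA-B (0.45), and PSME2 (-0.24) fell. Related HLA loci and alleles share reads, so single HLA values are uncertain. RFXAP did not pass without sgKLHL14 DMSO replicate 1 or sgKLHL14 ibrutinib replicate 2 (adjusted p = 0.0532 to 0.119). HLA-DRB5 did not pass without sgKLHL14 DMSO replicate 1 (adjusted p = 0.0851). PSME2 did not pass without sgKLHL14 DMSO replicate 1 or sgKLHL14 ibrutinib replicate 2 or without the variance trend (adjusted p = 0.0685 to 0.131).

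Survival genes split by member. Of 15 BCL2 family genes BCL2L11 (BIM), BBC3 (PUMA), MCL1 and BCL2L13 rose and PMAIP1 (NOXA), BCL2L2, BCL2A1, BID and BCL2L1 fell. BCL2L11, a killer protein, had log2 levels of 13.56 and 13.64 in DMSO and 14.28 and 14.34 in ibrutinib (1.63-fold higher). MCL1, a survival protein, had 13.41 and 13.50 in DMSO and 13.98 and 13.98 in ibrutinib (1.44-fold higher). PMAIP1, an antagonist of MCL1, had 11.24 and 11.17 in DMSO and 10.58 and 10.45 in ibrutinib (1.61-fold lower). None of the 3 overlapped, while BCL2 itself had 12.30 and 12.41 in DMSO and 12.39 and 12.41 in ibrutinib and did not pass (0.04, adjusted p = 0.621; -0.01 without sgKLHL14 DMSO replicate 1). BBC3 (0.60) and BCL2L13 (0.21) rose, and BCL2L2 (-0.43), BID (-0.37) and BCL2L1 (-0.31) fell. Of 24 p53 targets 41.7% passed, near the 42.1% of all genes, so the list did not stand out by that share. In it 7 rose (29.2%, against 21.0% of all genes) and 3 fell (12.5%, against 21.1%). The increases included TP53INP1 (1.11), BTG2 and SESN1 (0.62), and the decreases were SESN2, SPATA18 (-0.64) and FDXR (-0.27). CDKN1A (0.09) and MDM2 (0.09) did not pass (adjusted p = 0.28 and 0.219). BCL2L13 did not pass without sgKLHL14 DMSO replicate 1, sgKLHL14 ibrutinib replicates 1 and 2 (each in turn) (adjusted p = 0.0533 to 0.0946). BCL2L2 and SPATA18 did not pass without sgKLHL14 DMSO replicate 2 or sgKLHL14 ibrutinib replicate 2 (adjusted p = 0.0575 to 0.123). BCL2L1 did not pass without sgKLHL14 DMSO replicate 1 (adjusted p = 0.0569). FDXR did not pass without sgKLHL14 DMSO replicates 1 and 2 (each in turn), sgKLHL14 ibrutinib replicate 2, with only the sgKLHL14 libraries or with thinned reads (adjusted p = 0.0509 to 0.25).

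Cullin-3 adaptors and histones complete the lists. Of 38 genes in the list of KLHL14, KLHL6 and cullin-3 genes 10 rose (26.3%, against 21.0% of all genes). KLHL14 was first, then KLHL24 (0.73) and TOR1AIP1 (0.34), a listed gene that is neither a KLHL nor a cullin gene. KLHL6 (-0.63), KLHL26 (-0.41) and KLHL18 (-0.26) fell. CUL3 was at 0.07 and did not pass (adjusted p = 0.387). Of 16 histone genes 9 rose, among them HIST1H4H (1.39), HIST2H2BF (1.13) and HIST1H2AG (0.97), and the variants H1FX (-0.92), H2AFZ (-0.57) and H2AFX (-0.34) fell. Replication-dependent histone mRNA mostly lacks a poly(A) tail and its copies are near-identical, so poly(A) libraries give these levels with uncertainty. KLHL26 did not pass without sgKLHL14 DMSO replicates 1 and 2 (each in turn), sgKLHL14 ibrutinib replicates 1 and 2 (each in turn) or with thinned reads (adjusted p = 0.0593 to 0.169). KLHL18 did not pass without sgKLHL14 DMSO replicate 1 or sgKLHL14 ibrutinib replicate 2 or with thinned reads (adjusted p = 0.0534 to 0.0625). H2AFX did not pass without sgKLHL14 DMSO replicate 1 or sgKLHL14 ibrutinib replicate 2, without the level filter, without the variance trend or with thinned reads (adjusted p = 0.122 to 0.372).

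The response with sgKLHL14 resembled that with sgCTRL over the same genes. With sgCTRL 4097 genes passed (37.5%). Of the calls, 3297 passed with both guides, each in the same direction with both, which is 71.7% of the calls with sgKLHL14 and 80.5% of those with sgCTRL. The changes correlated at 0.904 across the 10921 genes, given as a description, since genes are not independent and both sets share the treatment. Of 1302 genes called with sgKLHL14 alone, 1243 had the same sign with sgCTRL and 202 had an unadjusted p of the difference under 0.05. The risen genes had a median of 0.42 with sgKLHL14 and 0.35 with sgCTRL, and the fallen genes -0.37 and -0.30. These genes were chosen on their sgKLHL14 values, and the genes called with sgCTRL had medians of 0.41 and -0.36 with sgKLHL14 and 0.41 and -0.36 with sgCTRL.

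The difference between the responses passed for 3 of 10921 genes (0.0275%). HNRPLL (now HNRNPLL), a splicing factor that controls CD45 isoforms, had log2 levels of 9.81 and 9.86 in sgKLHL14 DMSO and 7.95 and 7.99 in ibrutinib. It fell 3.66-fold (-1.87) against -0.91 with sgCTRL, a difference of -0.96 (adjusted p = 0.00137). KLHL14 rose by 0.90 against 0.24 with sgCTRL, a difference of 0.66 (adjusted p = 0.00164). CLCN4, a chloride-proton exchanger, had 10.13 and 10.26 in sgKLHL14 DMSO and 9.998 and 10.04 in ibrutinib, a change of -0.18 that did not pass (adjusted p = 0.145), against -1.02 with sgCTRL, a difference of 0.84 (adjusted p = 0.0235). The next smallest p-values, for C1orf38, now THEMIS2, a B cell signalling adaptor (0.71), and SLAMF7 (0.52), did not pass (adjusted p = 0.105 and 0.188). The difference of HNRPLL did not pass without the level filter or without the variance trend (adjusted p = 0.0609 to 0.141). The difference of KLHL14 did not pass without the level filter or without the variance trend (adjusted p = 0.21 to 0.488). The difference of CLCN4 did not pass without sgCTRL DMSO replicates 1 and 2 (each in turn), sgCTRL ibrutinib replicate 1, sgKLHL14 DMSO replicate 1, sgKLHL14 ibrutinib replicates 1 and 2 (each in turn), without the level filter, without the variance trend, with thinned reads or with voom (adjusted p = 0.074 to 0.568). The difference of C1orf38 passed with the replicate block (adjusted p = 0.0352).

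**Figure D5:**
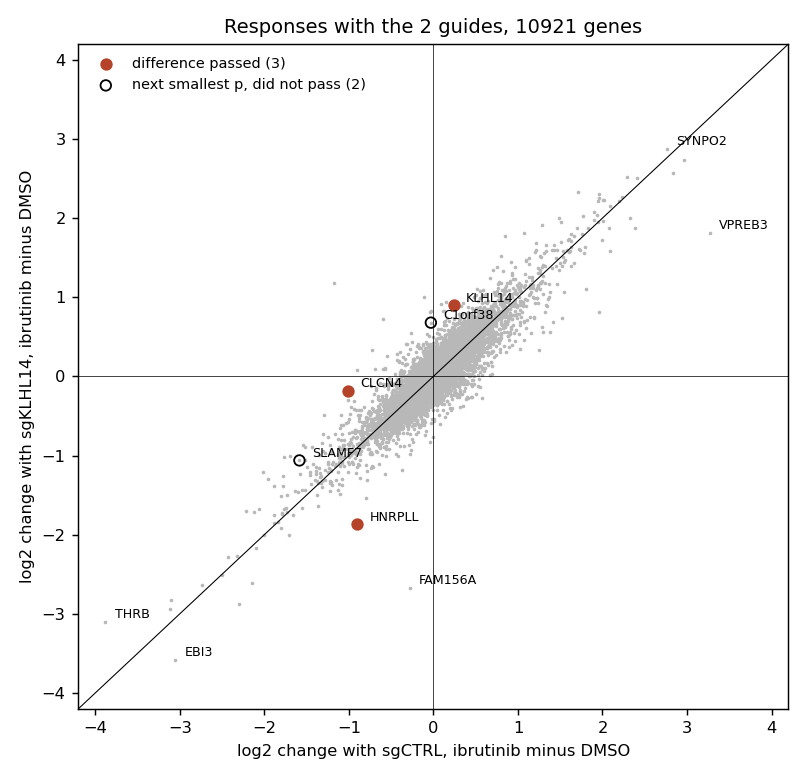
Log2 change with ibrutinib of each of 10921 genes, with sgCTRL on the x axis and sgKLHL14 on the y axis, and the line of equal change. Most points follow the line, and the 3 filled red points, HNRPLL, KLHL14 and CLCN4, are the genes whose difference passed at an adjusted p under 0.05.

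Markers showed a B cell population. Of 12 B cell markers 11 reached the level, and 10 rose, from CD22 (0.25) to VPREB3 (1.81). The summed normalized count of the 12 markers was 151890 to 163898 in DMSO and 226785 to 234145 in ibrutinib. Of 18 T and NK cell markers only CD5, which some B cell lymphomas express, reached the level, and it rose by 0.49. CD3D, CD3E, CD28, TRAT1, CD7 and KLRD1 were listed at 0 in all 4 sgKLHL14 libraries, and the list summed to 320 to 331 in DMSO and 455 to 525 in ibrutinib. Of 15 myeloid markers only CD68 reached it (0.06, adjusted p = 0.564), with CD33, MPO, ELANE, S100A8, S100A9, MARCO and FCN1 at 0. Of 18 epithelial and stromal markers EPCAM, KRT18, KRT19, LUM, PDGFRA and CDH5 were at 0, COL1A1 (0.91) and CDH1 (0.24) rose and KRT8 (-0.60) and VIM (-0.20) fell. CD5 did not pass without sgKLHL14 ibrutinib replicate 2 (adjusted p = 0.0577). CDH1 did not pass without sgKLHL14 DMSO replicate 1 or sgKLHL14 ibrutinib replicate 2 (adjusted p = 0.0505 to 0.0511). VIM did not pass without sgKLHL14 DMSO replicate 1 or sgKLHL14 ibrutinib replicate 2 or without the variance trend (adjusted p = 0.0543 to 0.0824).

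At the level that defines the comparison, the genes just inside were TMEM22 (mean log2 6.0029), DIXDC1 (6.0036) and PAQR8 (6.0049), with changes of -0.93, -0.06 and 0.19. Those just outside were HOXB3 (5.9996), AKAP6 (5.9981) and FRAT1 (5.9975), with changes of 0.20, 0.60 and 0.70.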

How the data were processed

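RNA was made into stranded poly(A) libraries, per the labels' protocols. The submitters' processing notes name bcl2fastq, STAR, HTSeq and hg19. Versions, annotation and strand setting were not given in the sources used here, and overlapping genes may therefore share reads. The authors deposited log2 values of normalized counts, 1 column per library, with a row of read totals that entered no test. All deposited values corresponded to whole reads multiplied by 1 constant per column (100% of values, tolerance 0.0015 on the log2 scale). None of the 10921 genes compared had a library without reads, and 0 columns belonged to other samples.

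The 12531 genes with a mean log2 of at least 4.2 were fitted with 4 group means over all 8 libraries, using limma 3.58.1 (R 4.3.3) with a variance trend. Residual and prior degrees of freedom were 4 and 14.9. P-values were adjusted by Benjamini-Hochberg over the 12531 genes, and a gene passed at an adjusted p under 0.05. Counts are over the 10921 genes at 6 or more. A trial run of the fit used simulated counts with the same spread for all genes and few changed genes. That setting differs from these data, so it does not measure the error rate of the calls here. The members and lists were chosen with earlier results of these data known.

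The genes named are KLHL14 and BTK, the 15 highest and 15 lowest changes among genes that passed, had an official symbol and did not overlap between treatments, the 8 largest gains and losses in normalized count under the same conditions, up to 3 genes per list and direction that passed with the smallest p, the 5 smallest p of the difference and the 3 genes on either side of the level. Other list members were named after their values were seen. Promoter sequences are RefSeq's (GRCh38.p14), matched by gene ID for 8757 of the 10921 genes. Alternatives changed the level filter, variance trend, prior, pseudocount, scaling, tool (voom on recovered reads), depth and libraries used, and added the replicate block. Some genes are not reported here.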

Additional observations from a re-analysis of the deposited data

Results flagged for a closer look

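The responses to ibrutinib with the 2 guides differed for 3 genes by a test of the difference itself (limma, adjusted p under 0.05), in 2 libraries per group. The difference was -0.963 for HNRPLL, which fell with both guides, and 0.658 for KLHL14, which rose with both. For CLCN4 it was 0.837, with a decrease that passed with sgCTRL only. For each of the 3 genes the DMSO and ibrutinib libraries of the sgKLHL14 group did not overlap, which was so for 69.4% of all genes. That separation lies within the sgKLHL14 libraries and does not test the difference between guides.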

How the results depend on the processing

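The count of 4599 genes that changed with sgKLHL14 stayed within 1.5 times under all 19 alternatives, from 3364 without sgKLHL14 ibrutinib replicate 2 to 4923 with the replicate block. Leaving out 1 library each gave 3364 to 4619, and the share of increases was 48.4% (quantile scaling) to 51.5% (without sgKLHL14 DMSO replicate 1). Of the 4599 genes 2629 (57.2%) passed under all 19, and of the 301 with a change of at least 2-fold 296 did. Of 357 named genes 300 kept their direction and their side of the threshold throughout.

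The count of genes whose response differed between guides, 3 in the fit as reported with 625 at an unadjusted p under 0.05, was 0 in limma without the level filter (591 unadjusted) and 0 without the variance trend (527 unadjusted). It was 2 with voom, 5 with the replicate block and 2 to 4 without 1 library each. Deviations of same-numbered sgKLHL14 libraries correlated at 0.194, and those of other pairs of groups at -0.084 to 0.147. With 2 numbers per group, the numbers were not taken to pair the samples. Thinned reads, a setting chosen after seeing the data, gave counts of 4316 and 2.

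Among the named genes the direction turned for 3 that did not pass in the fit as reported. Without 1 sgKLHL14 library each, DIXDC1 ranged from -0.268 to 0.156 and was at 0.004 without ibrutinib replicate 2. BCL2 ranged from -0.014 to 0.095 and CD68 from -0.023 to 0.143. The cause of these changes was not tested. The sgKLHL14 ibrutinib libraries were shallower than those in DMSO, which limits the precision at low levels.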

Other observations

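VPREB3 rose by 1.81 with sgKLHL14 and by 3.27 with sgCTRL, and the difference of -1.46 did not pass (adjusted p = 0.477).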
